A study of Bos taurus with 9 samples.

Results

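Taurine can reach a cell by import or by synthesis from cysteine, and once inside it is built into mitochondrial tRNA. Genes of these routes were followed in bovine oocytes. The list held 10 genes, taken by symbol for their known role and with earlier results of these data known. They were the transporters SLC6A6, SLC6A13 and SLC36A1 and the synthesis enzymes CDO1, CSAD, GADL1 and ADO. The list also held the conjugating enzyme BAAT and the mitochondrial tRNA enzymes MTO1 and GTPBP3. Of the 10 genes, 9 were matched among the 17852 genes of the deposited table. BAAT, which joins bile acids to taurine or glycine, could not be matched by symbol and was not analysed here. The oocytes were at metaphase II, where a mammalian egg arrests until it is fertilized. There were 3 libraries of control oocytes, 3 from a microplastics treatment and 3 from a treatment with microplastics plus taurine. These last libraries are called taurine 1, 2 and 3 below, and no group received taurine alone. The labels used here give no particle type, dose or exposure time, and no age or breed of the cows.

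In the main route to taurine, cysteine dioxygenase (CDO1) oxidizes cysteine to cysteine sulfinic acid, a decarboxylase (CSAD) turns this into hypotaurine, and hypotaurine is oxidized to taurine. A second route starts from cysteamine, a breakdown product of coenzyme A, which the dioxygenase ADO converts straight to hypotaurine. Follicular and oviductal fluids are rich in taurine and hypotaurine, which act there as osmolytes and antioxidants, and mitochondria attach taurine to the wobble uridine of several tRNAs so that their codons are read correctly.

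Libraries held 21.17 to 22.74 M estimated reads. All 20 oocyte markers had at least 3 reads in every library, and their TPM summed to 73894 to 79906 in control, to 49573 to 57609 in the microplastics group and to 65293 to 72868 in the taurine group. BTG4, an oocyte mRNA, took 4.73 to 5.52% of the reads of control libraries, 2.08 to 2.88% of microplastics libraries and 4.41 to 5.31% of taurine libraries. Of the 20 oocyte markers, 3 rose and 7 fell with microplastics against control, where 9.68% of all tested genes rose and 14.7% fell. With library size only, 6 markers rose and 5 fell, where 30.3% of all genes rose and 6.63% fell. The most abundant, BTG4, averaged 29402 and 15070 TPM, while ZAR1 averaged 52.8 and 159 TPM and TLE6 68.6 and 198 TPM, these last chosen after their values were seen. TMM factors, which scale libraries so that most genes centre on no change, ran from 0.835 to 0.972 in control libraries, 1.21 to 1.25 in microplastics libraries and 0.841 to 0.958 in taurine libraries. TPM does not include this factor, so levels in TPM and tests in TMM-scaled CPM can differ in direction, and both are given. Library size alone, in place of TMM, put the median log2 change of all genes at 0.52 instead of 0.04 with microplastics and at -0.45 instead of -0.02 with taurine added. Among all libraries, control 2 and taurine 3 were nearest to each other, as were control 3 and taurine 1. Taurine 2 was nearest to control 3, and control 1 to control 2. Each microplastics library was nearest to another microplastics library. Of 18 cumulus and granulosa markers, 17 were in the table and summed to 176 to 271 TPM in control, 227 to 304 TPM with microplastics and 208 to 246 TPM with taurine, with FSHR at 0 in the control and microplastics libraries and AMH at 0 in the microplastics libraries. In a bulk library, fewer cells of a type and less RNA per cell cannot be told apart.

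Transcripts of 5 of the 9 genes were present in every library with at least 3 reads: SLC36A1, CDO1, CSAD, ADO and MTO1. GTPBP3 reached that floor in all 3 control and all 3 microplastics libraries, GADL1 in all 3 taurine libraries, and SLC6A6 and SLC6A13 in no group. By TPM, which corrects for transcript length, CDO1 stood far above the rest in each group, followed by ADO and SLC36A1, whose libraries overlapped, and then by MTO1. In control the ranges of CSAD, GTPBP3, GADL1, SLC6A6 and SLC6A13 ran into each other below MTO1. With microplastics CSAD lay above GTPBP3 and GTPBP3 above GADL1 without overlap.

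**Figure D1:**
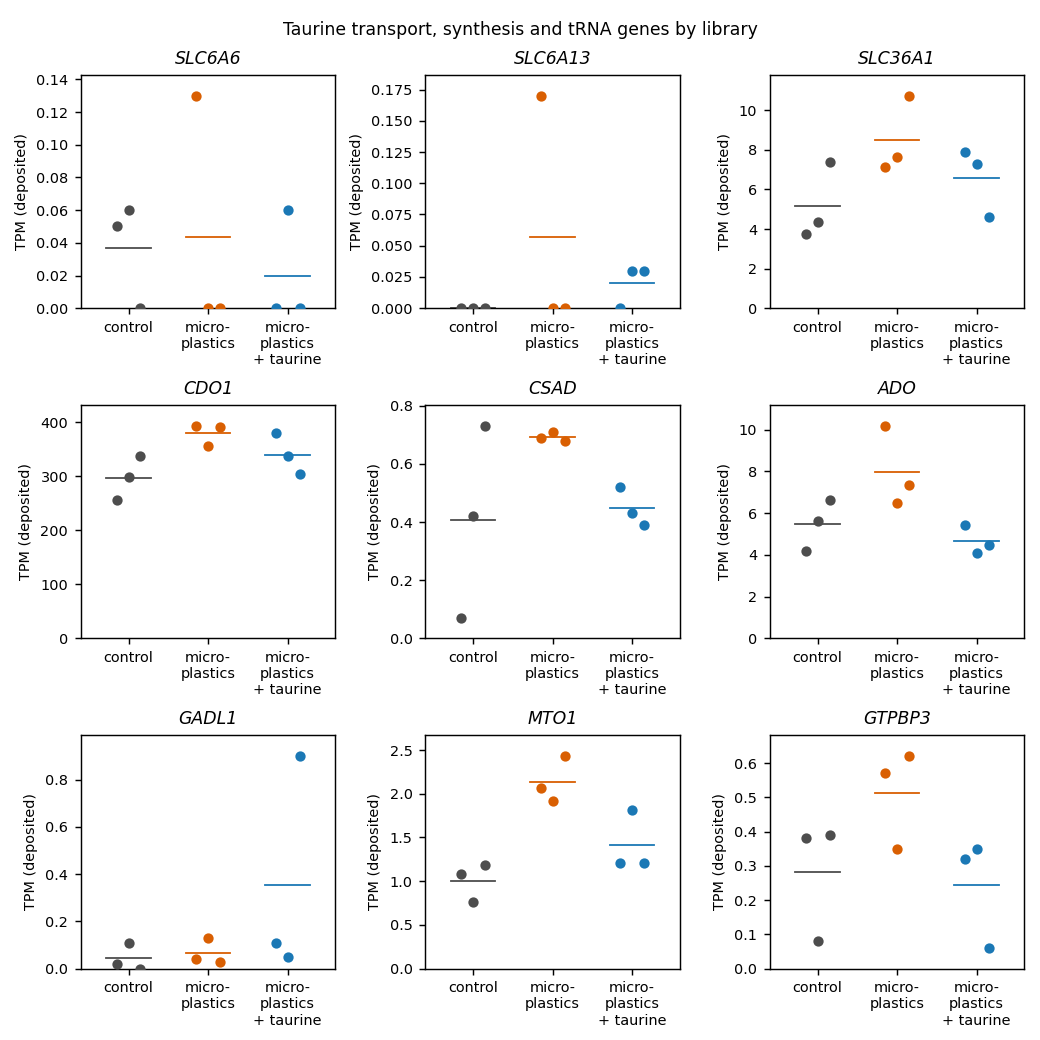
Level of the 9 matched genes in each library. Vertical axes give deposited TPM summed per gene on a scale of its own for each gene, points are libraries 1, 2 and 3 from left to right within a group, and horizontal lines are group means (n = 3). CDO1 lies between 256 and 393 TPM, and the other 8 genes lie at or below 10.7 TPM.

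None of the 6 genes that passed the filter on low counts (SLC36A1, CDO1, CSAD, ADO, MTO1 and GTPBP3) was called at an adjusted p under 0.05 by edgeR's quasi-likelihood test. This was 0 of 6 with microplastics against control, where 24.3% of all 13206 tested genes were called (9.68% higher and 14.7% lower), and 0 of 6 with taurine against microplastics, where 14.2% were called (10.1% higher and 4.13% lower). It was also 0 of 6 with taurine against control, where 0.00757% of genes were called. At an unadjusted p under 0.05 the counts were 0, 1 and 0 of 6, against 38.1%, 29.0% and 5.70% of all tested genes. The Wald test of DESeq2 and limma-voom called 0 of them in each comparison, and library size only called MTO1. The median log2 change of the 6 was 0.19, -0.09 and 0.15 in these comparisons, against 0.04, -0.02 and 0.02 for all genes. The first comparison and the second share the microplastics libraries.

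**Figure D2:**
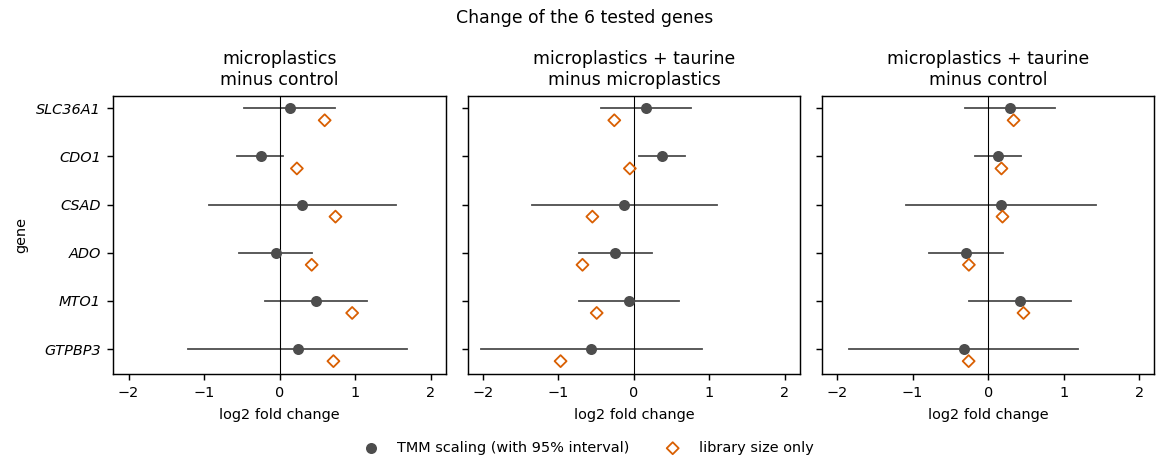
Log2 fold change of the 6 tested genes in each of the 3 comparisons. Filled circles with 95% intervals are TMM-scaled and open diamonds use library size only; CDO1 lies on opposite sides of 0 by scaling in the first comparison (-0.25 and 0.23) and the second (0.38 and -0.05), and MTO1 with microplastics is at 0.48 and 0.96.

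The transporter most closely tied to taurine was at the edge of detection. SLC6A6 (gene ID 282366) encodes TauT, the sodium- and chloride-dependent taurine carrier of the plasma membrane. It had 2, 2 and 0 reads in control, 4, 0 and 0 with microplastics, and 0, 2 and 0 with taurine. Only microplastics 1 passed 3 reads, a floor equal to 0.082 to 0.095 TPM for this gene, so the groups could not be compared at this depth. SLC6A13 (gene ID 523784) encodes GAT2, a transporter of GABA that also carries taurine. It had no read in the 3 control libraries, 6, 0 and 0 with microplastics, and 0, 1 and 1 with taurine. Its 3-read floor was 0.07 to 0.081 TPM, passed again in microplastics 1 alone. The table holds 1 transcript of SLC6A6 where the RefSeq table has 10, and 1 of SLC6A13 where it has 6. It also holds 1 each of SLC36A1, GADL1, GTPBP3 and MTO1, where the RefSeq table has 12, 4, 4 and 3. The single transcript of ADO was not the 1 in the RefSeq table. Whether reads of other isoforms were counted was not tested.

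SLC36A1 (gene ID 518759) encodes PAT1, a proton-coupled carrier of small amino acids that accepts taurine with low affinity. It was present in all libraries. Its level was 3.77, 4.36 and 7.38 TPM in control, 7.12, 7.65 and 10.7 TPM with microplastics, and 7.87, 7.27 and 4.60 TPM with taurine. Control 3 and taurine 3 lay apart from their own groups, on the side of the other group, and the 3 groups overlapped. The log2 change in TMM-scaled CPM was 0.13 ± 0.28 (SE, n = 3 a group) with microplastics against control, with a 95% interval from -0.47 to 0.73 and an adjusted p of 0.754 in edgeR's quasi-likelihood test. Its change with taurine against microplastics was 0.16, with an interval from -0.44 to 0.76. Without microplastics 3 the first change was -0.02.

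Some relatives of these carriers were read at higher levels than SLC6A6. Of 10 listed relatives, 5 had at least 3 reads in every library and the same 5 were tested, and none passed in any comparison. Of all tested genes, 24.3% were called with microplastics against control, 14.2% with taurine against microplastics and 0.00757% with taurine against control. SLC6A8, the creatine transporter, averaged 28.4 TPM in control, 58.1 TPM with microplastics and 27.5 TPM with taurine. Its log2 change in TMM-scaled CPM was 0.45 ± 0.24 with microplastics (adjusted p = 0.189, edgeR, n = 3 a group). SLC6A20, a carrier of proline and related imino acids, averaged 23.6, 29.7 and 34.2 TPM in the same order. With library size only, 2 of the 5 relatives were called higher with microplastics, as were 30.3% of all genes.

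Taurine also leaves swelling cells through the volume-regulated anion channel, built from LRRC8A and its partners LRRC8B to LRRC8E. All 5 subunits had at least 3 reads in every library. LRRC8C gave 62.4, 61.2 and 63.7 CPM in control, 23.1, 25.5 and 24.6 CPM with microplastics, and 60.1, 50.7 and 76.2 CPM with taurine. All microplastics libraries lay below all others, in comparisons where 44.9% and 36.0% of genes had no overlap. LRRC8C fell by 1.36 ± 0.18 on the log2 scale with microplastics (adjusted p = 0.000412, edgeR, n = 3 a group). It rose by 1.35 ± 0.18 with taurine against microplastics (adjusted p = 0.000608, edgeR, n = 3 a group). LRRC8C held both calls under all alternatives run. LRRC8E, another subunit, fell by 1.39 on the log2 scale with taurine against microplastics (adjusted p = 0.0203, edgeR). That call was lost with any microplastics library left out (-1.45 to -1.35), without taurine 3 (-1.22) and with the replicate block (-1.37). The indispensable subunit LRRC8A did not pass in either comparison.

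CDO1 (gene ID 514462), the committed step of the cysteine route, was the most abundant of the genes. Its level was 256, 298 and 337 TPM in control, 393, 356 and 390.4 TPM with microplastics, and 379.5, 337 and 303 TPM with taurine. Means were 297 ± 40.3, 379.8 ± 20.4 and 340.0 ± 38.1 TPM (SD, n = 3), which lie above 96.9%, 97.6% and 97.2% of all genes. In TPM the microplastics libraries lay above all control libraries, as did those of 49.2% of the tested genes. After TMM scaling the order turned: CDO1 gave 262, 293 and 276 CPM in control, 239.7, 228 and 231 CPM with microplastics, and 323, 292 and 291 CPM with taurine. Here the microplastics libraries lay below those of both other groups, and 44.9% of genes had no overlap in the first of these comparisons and 36.0% in the second.

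The log2 change of CDO1 was -0.25 ± 0.14 with microplastics against control (95% interval -0.56 to 0.05, adjusted p = 0.202, edgeR, n = 3 a group). It was 0.38 ± 0.14 with taurine against microplastics (interval 0.07 to 0.68, unadjusted p = 0.0193, adjusted p = 0.0948, edgeR). CDO1 was the 1 gene among the 6 tested with an unadjusted p under 0.05 in that comparison, and it did not pass after adjustment. Under library size alone the changes were 0.23 and -0.05, so the direction of both rests on the scaling. With a length trend removed in each library they were -0.03 and 0.18. Taurine against control gave 0.12, with an interval from -0.18 to 0.43.

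CSAD (gene ID 516241), the decarboxylase that follows CDO1, was measured close to the floor. It had 3, 18 and 29 reads in control, 27, 31 and 27 with microplastics, and 22, 19 and 16 with taurine. These correspond to 0.07, 0.42 and 0.73 TPM, then 0.69, 0.71 and 0.68 TPM, and 0.52, 0.43 and 0.39 TPM. Control 1 was the lowest library and control 3 the highest, so the control range held both other groups, while all taurine libraries lay below all microplastics libraries, as in 45.0% of tested genes on the TPM scale. The log2 change with microplastics was 0.30 ± 0.57 (interval -0.94 to 1.54, adjusted p = 0.733, edgeR, n = 3 a group), and without control 1 it was -0.18.

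Reads of CSAD were assigned to different transcripts in different groups, and also in different libraries of the microplastics and taurine groups. How often other genes with so few reads split in this way was not tested. The table lists 5 transcripts, called A to E here. All control reads, in each library, were on transcript E. With microplastics none were: microplastics 1 had 12.05 reads on A, 10.1 on B and 4.83 on C, microplastics 2 had 24.7 on D and 6.29 on C, and microplastics 3 had all 27 on D. Taurine 1 had 16.6 reads on D and 5.44 on B, taurine 2 had 12.4 on E and 6.60 on C, and taurine 3 had all 16 on E. The fractional reads are estimates made by the authors' counting program for 3 to 31 reads a library, and none of the 5 transcripts passed to a test of its own. None of the 5 was among the 7 CSAD transcripts of the RefSeq table, so the exons that tell them apart were not examined.

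**Figure D3:**
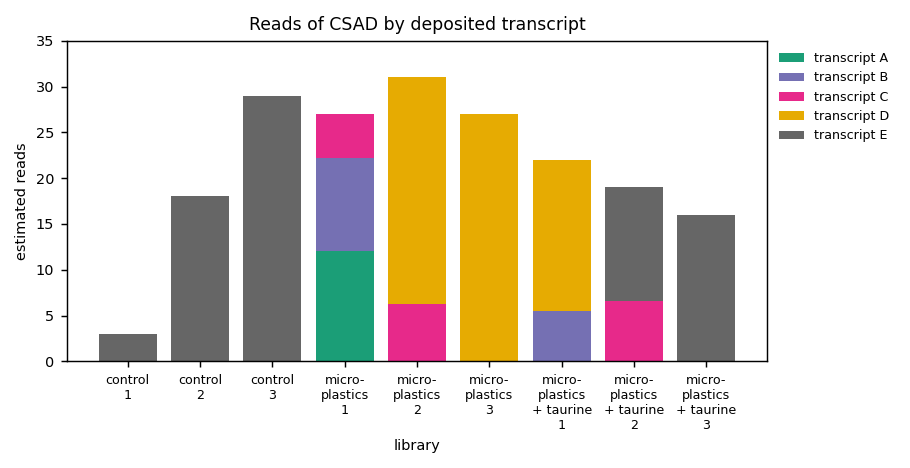
Estimated reads of CSAD in each library, split by deposited transcript (A to E). Bars are single libraries and start at 0. Control bars are on transcript E alone, from 3 to 29 reads, and no microplastics bar holds transcript E. The leading transcript also differs between libraries within the microplastics and taurine groups.

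GADL1 (gene ID 614548), a decarboxylase related to CSAD that also acts on aspartate, had 1, 7 and 0 reads in control, 2, 8 and 2 with microplastics, and 7, 3 and 55 with taurine. Taurine 3 alone held 0.90 TPM, and the other 8 libraries lay between 0 and 0.13 TPM. GADL1 did not pass the filter and was not tested.

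ADO (gene ID 100297937), the cysteamine dioxygenase, gave 4.19, 5.61 and 6.65 TPM in control, 10.2, 6.47 and 7.34 TPM with microplastics, and 5.43, 4.07 and 4.49 TPM with taurine. Microplastics 1 was the highest library. All taurine libraries lay below all microplastics libraries, as in 45.0% of tested genes in TPM, and the control range overlapped both. After TMM scaling the groups overlapped. The log2 change in TMM-scaled CPM was -0.05 ± 0.22 with microplastics (interval -0.54 to 0.43, adjusted p = 0.882, edgeR, n = 3 a group) and -0.24 ± 0.22 with taurine against microplastics (interval -0.73 to 0.24, adjusted p = 0.501). Library size only put the second at -0.68 (adjusted p = 0.0624, edgeR).

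A ratio of ADO to CDO1 within a library does not depend on the scaling between libraries. It can still carry a length trend of a library, since the implied lengths were 4106 nt for ADO and 912 nt for CDO1. No ratio with that trend removed was made. ADO stood at 0.0163, 0.0188 and 0.0197 of the CDO1 level in TPM in control, 0.0259, 0.0182 and 0.0188 with microplastics, and 0.0143, 0.0121 and 0.0148 with taurine. The 3 taurine libraries had the lowest ratios of all 9. Control libraries averaged a log2 ratio of -5.78 ± 0.14, microplastics libraries -5.60 ± 0.28 and taurine libraries -6.19 ± 0.16 (SD, n = 3). It differed by -0.60 between taurine and microplastics and by -0.42 between taurine and control, both without overlap between the groups. Each gave a two-sided exact permutation p of 0.1, the smallest that 3 libraries against 3 can give. Among single genes, 36.0% had no overlap between taurine and microplastics in TMM-scaled CPM. The share of other gene pairs whose ratios separate these groups was not computed. Microplastics and control differed by 0.18 (exact permutation p = 0.6), and their libraries overlapped.

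**Figure D4:**
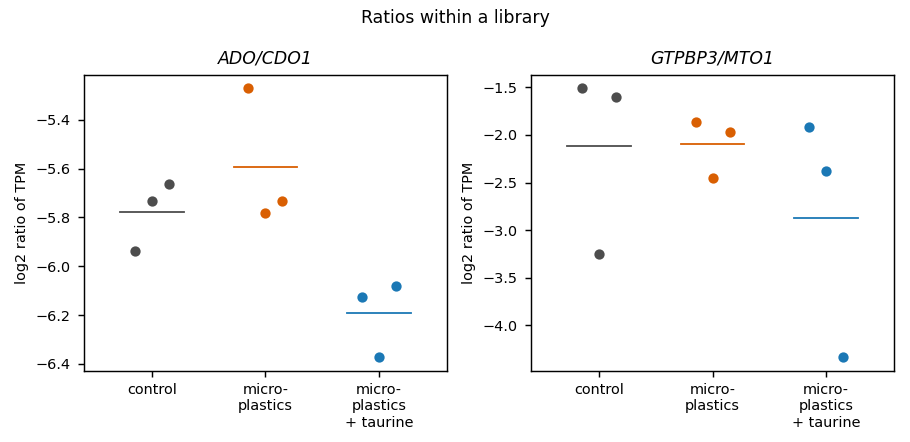
Ratios within single libraries, as log2 of TPM over TPM. Points are libraries 1, 2 and 3 from left to right within a group and lines are group means (n = 3); the 3 taurine libraries hold the lowest ADO to CDO1 ratios, from -6.37 to -6.08, and the GTPBP3 to MTO1 ratio is lowest in taurine 3 at -4.33.

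The gene profiles most like that of CDO1 over the 9 libraries, by Pearson r of log2 CPM among 8063 genes, were those of PLIN2 (r = 0.971), C2H2orf80 (r = 0.970) and LMO1 (r = 0.961). PLIN2, which coats lipid droplets, averaged 328 CPM in control, 266 CPM with microplastics and 396 CPM with taurine. These correlations describe 9 libraries that share their scaling factors, and they carry no test.

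Supply of the substrate was read from genes of the methionine cycle and transsulfuration, the path from methionine to cysteine. Of 10 tested genes, 2 rose and 2 fell with microplastics against control, and 2 rose and 1 fell with taurine against microplastics. The same shares of all tested genes were 9.68% and 14.7%, then 10.1% and 4.13%. The median log2 change of the list was 0.09 in the first comparison and -0.30 in the second, against 0.04 and -0.02 for all genes. With library size only, 4 rose and 2 fell in the first, where 30.3% of all genes rose and 6.63% fell, and 1 rose and 4 fell in the second, where 4.55% rose and 18.8% fell. CBS, which joins homocysteine to serine, gave 1.09, 1.59 and 2.96 CPM in control, 6.30, 4.06 and 4.54 CPM with microplastics, and 1.62, 1.93 and 2.19 CPM with taurine. CBS rose by 1.39 ± 0.38 on the log2 scale with microplastics (adjusted p = 0.021, edgeR, n = 3 a group) and fell by 1.38 ± 0.38 with taurine against microplastics (adjusted p = 0.0322). Its first call was lost without control 1 (1.12), control 2 (1.28), microplastics 1 (1.20) or microplastics 3 (1.47). Its second was lost without any 1 of the 6 libraries compared (-1.52 to -1.19), with the replicate block (-1.40) and with transcripts tested one by one (-1.38).

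CTH, which releases cysteine from cystathionine and follows CBS, moved the other way. It gave 327, 333 and 267 CPM in control, 152, 159 and 137 CPM with microplastics, and 189, 240.3 and 359 CPM with taurine. CTH fell by 1.05 ± 0.22 on the log2 scale with microplastics (adjusted p = 0.00539, edgeR, n = 3 a group) and rose by 0.82 ± 0.22 with taurine against microplastics (adjusted p = 0.0273). All microplastics libraries lay below all others, where 44.9% of genes had no overlap between microplastics and control and 36.0% had none between taurine and microplastics. Taurine 3 was the highest library. The second call was lost without taurine 3 (0.53) and without any 1 microplastics library (0.74 to 0.85). It was also lost with the replicate block (0.80), with library size only (0.36) and with transcripts tested one by one (0.81). MAT2B, the regulatory subunit of the enzyme that makes S-adenosylmethionine, gave 734, 692 and 737 CPM in control, 334, 345 and 442 CPM with microplastics, and 697, 707 and 769.6 CPM with taurine. It fell by 0.95 ± 0.16 on the log2 scale with microplastics (adjusted p = 0.00141, edgeR, n = 3 a group) and rose by 0.96 ± 0.16 with taurine (adjusted p = 0.00203). Both calls of MAT2B and both of CTH were lost in the fits on TPM, and the rise of CTH was also lost without control 3 and taurine 3 together (0.51). Of 14 tested cumulus and granulosa markers, 5 fell with microplastics, where 14.7% of all genes fell, and 4 rose with taurine, where 10.1% rose. Their summed TPM reached higher with microplastics than in control, with overlap, and STAR, the largest single part of that sum, averaged 113 TPM in control and 183 TPM with microplastics. The part of these markers in the changes was not tested.

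Of 8 tested carriers for cysteine, cystine or their exchange partners, 2 rose and 1 fell with microplastics, and 1 rose and 1 fell with taurine against microplastics, where 24.3% and 14.2% of all genes were called. Medians were -0.04 and 0.10, against 0.04 and -0.02 for all genes. SLC1A5, a neutral amino acid exchanger, gave 52.6, 70.2 and 81.7 CPM in control, 166, 174 and 171 CPM with microplastics, and 72.0, 99.4 and 101 CPM with taurine. SLC1A5 rose by 1.32 ± 0.20 on the log2 scale with microplastics (adjusted p = 0.000838, edgeR, n = 3 a group) and fell by 0.91 ± 0.20 with taurine (adjusted p = 0.0102), and both calls held under all alternatives run. SLC3A2, the heavy chain that cystine and neutral amino acid carriers share, gave 157, 185 and 180.5 CPM in control, 113, 104.9 and 75.0 CPM with microplastics, and 217, 236 and 205 CPM with taurine. It fell by 0.84 ± 0.18 on the log2 scale with microplastics (adjusted p = 0.00639, edgeR, n = 3 a group). That call was lost with library size only (-0.36) and in both fits on TPM (-0.24 in each). SLC3A2 rose by 1.17 ± 0.18 with taurine (adjusted p = 0.00146, edgeR). SLC7A11, the light chain that makes the cystine carrier with SLC3A2, did not pass in either comparison.

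Cysteine has uses other than taurine. Of 8 tested genes of glutathione synthesis and turnover, 1 rose and 2 fell with microplastics, and 1 rose and 2 fell with taurine against microplastics, beside 24.3% and 14.2% of all genes called. Medians were 0.23 and -0.01, against 0.04 and -0.02 for all genes. GGCT, which recycles the glutamyl part of glutathione, fell by 1.22 on the log2 scale with microplastics (adjusted p = 0.0016, edgeR). GCLM, the modifier subunit of the first enzyme of glutathione synthesis, fell by 0.95 with microplastics (adjusted p = 0.00745, edgeR). That call was lost with library size only (-0.46) and in both fits on TPM (-0.35 and -0.34). GCLC, the catalytic partner of GCLM, fell by 1.05 with taurine against microplastics (adjusted p = 0.0299, edgeR). The GCLC call was lost without any 1 microplastics library, taurine 2 or taurine 3 (-1.09 to -0.99). It was also lost with the replicate block (-1.05) and with transcripts tested one by one (-1.06). Of 7 tested genes of other cysteine breakdown, 1 rose with microplastics and none passed with taurine against microplastics. The 1 that rose was SUOX, the mitochondrial sulfite oxidase. The shares of all genes called were 24.3% and 14.2%. List medians were 0.48 and 0.02, against 0.04 and -0.02 for all genes. With library size only, 4 rose with microplastics, where 30.3% of all genes rose. In that setting 2 fell with taurine against microplastics, where 18.8% fell. SUOX gave 6.21, 8.14 and 12.3 CPM in control, 26.4, 18.0 and 17.0 CPM with microplastics, and 13.1, 15.2 and 10.7 CPM with taurine. It rose by 1.20 ± 0.29 on the log2 scale with microplastics (adjusted p = 0.0114, edgeR, n = 3 a group), a call lost without control 1 (1.00) or microplastics 1 (1.00).

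For the cysteamine route, 7 genes of coenzyme A and cysteamine supply were tested. PANK3, a pantothenate kinase, fell by 0.52 on the log2 scale with microplastics (adjusted p = 0.0409, edgeR), and the other 6 did not pass. That call was lost without any 1 control or microplastics library (-0.56 to -0.42), without taurine 2 (-0.52), with no filter (-0.52), with the replicate block (-0.52) and with library size only (-0.04), and the direction turned in the fits on TPM (0.08). None of the 7 passed with taurine against microplastics or against control. Of all tested genes, 24.3% were called with microplastics against control, 14.2% with taurine against microplastics and 0.00757% with taurine against control. FMO1, a flavin monooxygenase that can oxidize hypotaurine to taurine, averaged 0.530 TPM in control, 0.717 TPM with microplastics and 0.617 TPM with taurine. FMO1 did not pass in any comparison, nor did the other 2 tested genes of hypotaurine oxidation and taurine conjugates, beside the same shares of all genes.

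**Figure D5:**
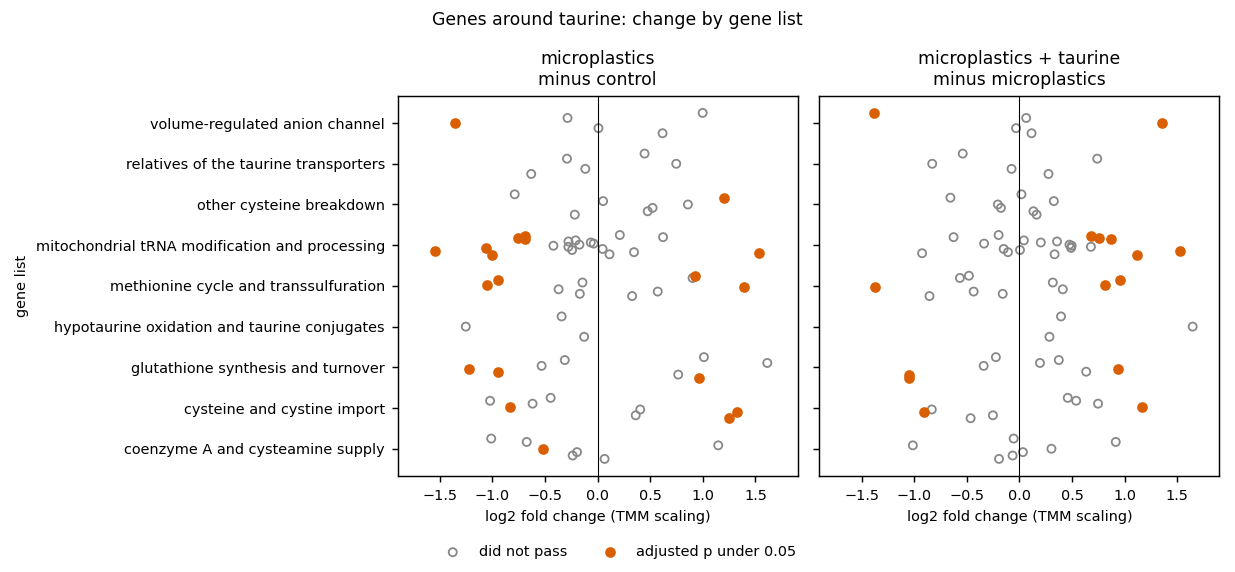
Change of each tested gene in the lists around taurine. Horizontal axes give the log2 fold change in TMM-scaled counts for microplastics minus control (left) and taurine with microplastics minus microplastics (right), each point is a gene, and filled points have an adjusted p under 0.05 in edgeR's quasi-likelihood test. Both panels hold filled points on both sides of 0, among them LRRC8C at -1.36 and 1.35 and MTFMT at -1.54 and 1.52.

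MTO1 and GTPBP3 act together to place the taurine-containing group on the wobble uridine of mitochondrial tRNAs. MTO1 (gene ID 535768) had 46, 32 and 46 reads in control, 76, 77 and 92 with microplastics, and 49, 74 and 48 with taurine. Its level was 1.08, 0.76 and 1.18 TPM, then 2.07, 1.92 and 2.43 TPM, and 1.21, 1.82 and 1.21 TPM. In TPM all microplastics libraries lay above all taurine libraries and these above all control libraries. Without overlap in TPM, 49.2% of tested genes had microplastics above control, 45.0% had taurine below microplastics and 4.95% had taurine above control. After TMM scaling MTO1 gave 2.51, 1.69 and 2.19 CPM in control, 2.87, 2.79 and 3.26 CPM with microplastics, and 2.33, 3.57 and 2.63 CPM with taurine. Microplastics lay above control without overlap, and 44.9% of tested genes did not overlap in that comparison in either direction. Taurine overlapped both.

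The log2 change of MTO1 with microplastics was 0.48 ± 0.31 (interval -0.19 to 1.15, adjusted p = 0.272, edgeR, n = 3 a group). It was -0.06 with taurine against microplastics (interval -0.73 to 0.60, adjusted p = 0.910) and 0.42 with taurine against control (interval -0.26 to 1.09, adjusted p = 0.860). With library size only, MTO1 was called higher with microplastics at 0.96 (adjusted p = 0.0352, edgeR), in a fit that called 37.0% of all genes, 30.3% higher and 6.63% lower. The fits on log2(TPM + 0.1) and log2(TPM + 1) also called it, at 1.03 (adjusted p = 0.0165, limma) and 0.65 (adjusted p = 0.0104, limma). The MTO1 call therefore rests on the scaling.

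GTPBP3 (gene ID 539656) had 14, 3 and 13 reads in control, 18, 12 and 20 with microplastics, and 11, 12 and 2 with taurine. Control 2 and taurine 3 were low at 0.08 and 0.06 TPM, and the other 7 libraries lay between 0.32 and 0.62 TPM. Its log2 change with microplastics was 0.24 ± 0.67 (interval -1.21 to 1.69, adjusted p = 0.820, edgeR, n = 3 a group), and without control 2 it was -0.18. The log2 ratio of GTPBP3 to MTO1 was -1.51, -3.25 and -1.60 in control, -1.86, -2.46 and -1.97 with microplastics, and -1.92, -2.38 and -4.33 with taurine. It was given no test, since GTPBP3 fell under 3 reads in taurine 3. TRMU, which adds sulfur to the same uridine, was looked at after its values were seen. Its log2 change was 0.62 with microplastics (adjusted p = 0.134, edgeR) and -0.63 with taurine against microplastics (adjusted p = 0.172).

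MTO1 and GTPBP3 work among many other enzymes that modify and process mitochondrial tRNA. Of 20 such genes tested, 1 rose and 6 fell with microplastics, with a median of -0.23 against 0.04 for all genes, of which 9.68% rose and 14.7% fell. With taurine against microplastics 5 rose and none fell, with a median of 0.35 against -0.02 for all genes, of which 10.1% rose and 4.13% fell. With library size only, the counts were 4 up and 1 down (all genes 30.3% and 6.63%), then 2 up and 2 down (all genes 4.55% and 18.8%). MTFMT, which formylates the initiator methionyl-tRNA, gave 237, 219.8 and 133 CPM in control, 65.4, 69.0 and 68.0 CPM with microplastics, and 159.8, 203 and 219 CPM with taurine. It fell by 1.54 ± 0.22 on the log2 scale with microplastics (adjusted p = 0.000604, edgeR, n = 3 a group) and rose by 1.52 ± 0.22 with taurine (adjusted p = 0.000923), and both calls held under all alternatives run. ELAC2, which trims the 3′ ends of tRNAs, gave 1.85, 1.69 and 1.62 CPM in control, 6.41, 3.88 and 4.68 CPM with microplastics, and 2.19, 3.33 and 2.35 CPM with taurine. It rose by 1.53 ± 0.32 on the log2 scale with microplastics (adjusted p = 0.00526, edgeR, n = 3 a group). NSUN3 and ALKBH1, which act in turn on the wobble cytosine of the mitochondrial methionine tRNA, fell by 1.06 (adjusted p = 0.00904) and by 1.01 (adjusted p = 0.0128) in edgeR's test, and ALKBH1 rose by 1.12 with taurine (adjusted p = 0.0113). The falls of NSUN3 and ALKBH1 were lost with library size only, at -0.59 and -0.51. Both falls were also lost in both fits on TPM, at -0.43 and -0.38 for NSUN3 and -0.38 and -0.37 for ALKBH1. ALKBH1 lost its fall also without control 1 (-0.92), microplastics 1 (-0.91) or microplastics 3 (-0.96). Its rise was lost without microplastics 1 (1.02) or microplastics 3 (1.06) and in both fits on TPM (0.54 and 0.53). Of the 13 listed proteins encoded in mitochondrial DNA, whose codons these tRNAs read, none was matched by symbol, so they were not analysed here.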

How the data were processed

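RNA of bovine oocytes was measured in 9 libraries, with total RNA extracted by TRIzol, per the labels' protocols. Of aligner, counter, build and annotation, each is not given in the sources used here. A deposited table lists 22590 transcripts with their gene IDs. The authors' estimated counts, per the file headers, are not whole in 35.0% of the transcripts and stand beside the authors' FPKM and TPM values. FPKM was used here only for the transcript lengths it implies. A further deposited signal, the rounded counts scaled by a factor for each library, was left out, as were the authors' means.

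Estimated counts and TPM were summed per gene ID, giving 17852 genes, of which 16995 (95.2%) took a symbol from a RefSeq gene table (assembly ARS-UCD2.0). Summed counts were rounded. Genes passing a filter (minimum count 10, minimum total 15) were tested in edgeR 4.0.16 (R 4.3.3) by quasi-likelihood, with TMM scaling, a robust fit over all 9 libraries and Benjamini-Hochberg adjustment over 13206 genes, and called at an adjusted p under 0.05. A floor of 3 reads in a library, the limit that a count of 0 allows, corresponds to 0.132 to 0.142 CPM. It covers counting error only, since the labels name no molecular identifiers. No label ties the replicates to separate cows or cultures. The p-values therefore measure only the spread between these samples, and that spread may be technical.

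The genes described, the surrounding lists and the markers were chosen with earlier results of these data known. The genes named from each list were up to 2 rising and 2 falling members with the smallest adjusted p under 0.05 in each comparison and any tested member of a list with 8 or fewer tested genes. The 3 genes most like the most abundant member were taken among those with at least 5 CPM on average. Alternatives were DESeq2 1.42.0 size factors and its Wald test, scaling by library size only, a filter of 5 CPM in 3 libraries or none, voom of limma 3.58.1, limma-trend on log2(TPM + 0.1) and log2(TPM + 1), a fit of only the compared groups, a replicate block, each library left out, control 3 and taurine 3 left out together, a length trend removed in each library, and transcripts tested one by one. Scripts were tested on simulated data with known changes between microplastics and control. The main test called 0 of 50 genes changed 1.5-fold, 9 of 50 changed 2-fold, 36 of 50 changed 4-fold and 47 of 50 changed 8-fold. Far fewer genes were changed there than were called in the data, so these rates may not carry over. Tables and plots were made in Python 3.11.15 with pandas 2.3.3, numpy 2.4.6, scipy 1.17.1 and matplotlib 3.10.9.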

Additional observations from a re-analysis of the deposited data

How the results depend on the processing

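With microplastics against control, 3213 genes were called; library size only gave 4880, the fits on log2(TPM + 0.1) and log2(TPM + 1) gave 5816 and 6042, leaving out control 3 and taurine 3 gave 5110, and leaving out 1 library gave 1715 to 4151. With taurine against microplastics, 1878 genes were called, and in the same order the counts were 3089, 3861 and 4370, with 888 to 2146 when 1 library was left out. With taurine against control, 1 gene was called, against 5 in the DESeq2 Wald test, 4 for transcripts one by one, 783 without control 3 and taurine 3, 0 to 2 without 1 library, and 0 with the 5 CPM filter, limma-voom, log2(TPM + 1), only the compared groups, or the replicate block. On the axis of largest variation between libraries, control 3 lay at -4.86, with control 1 and 2 at -57 and -50.6. Taurine 3 lay at -51.0, with taurine 1 and 2 at 7.05 and -3.36. Leaving out control 3 and taurine 3 removes the libraries on the side of the other group, so the 783 calls rest on that choice. Of the taurine genes 0 were called with microplastics against control, and 1 (MTO1) under library size only and both fits on TPM. At a floor of 1 TPM, 3 genes were present in all libraries instead of 5.

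Of 384 recomputed changes of the 6 tested genes, 356 kept their direction and their side of the threshold, 3 passed it (MTO1, above) and 25 turned direction; none of the latter had been called. With library size only, log2(TPM + 0.1) and log2(TPM + 1), in this order, CDO1 was 0.228, 0.361 and 0.360 with microplastics and -0.054, -0.164 and -0.164 with taurine against microplastics, ADO was 0.424, 0.535 and 0.469 with microplastics, and SLC36A1 was -0.260, -0.378 and -0.335 with taurine against microplastics. PANK3 with microplastics was 0.083 and 0.079 in the fits on TPM. These 3 settings leave out TMM factors. Over the fits that left out 1 library, SLC36A1 with microplastics ran from -0.019 (without microplastics 3) to 0.368 and ADO from -0.244 to 0.067, above 0 without control 2 or 3 or microplastics 2 or 3. CSAD ran from -0.179 to 0.891 with microplastics and from -0.302 to 0.751 with taurine against control, lowest without control 1 in both. GTPBP3 ran from -0.184 (without control 2) to 0.619 with microplastics and from -0.749 to 0.098 with taurine against control, above 0 without control 1 or taurine 3. MTO1 with taurine against microplastics ran from -0.262 to 0.062 (without taurine 1). Leaving out control 3 and taurine 3 together put ADO with microplastics at 0.016 and GTPBP3 with taurine against control at 0.269. Beyond the construction of each setting, the cause was not tested. The log2 ratio of ADO to CDO1 kept its direction without 1 library, at 0.02 to 0.28, -0.69 to -0.43 and -0.50 to -0.33 in the 3 comparisons.

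Libraries of different groups share replicate numbers in their titles. Deviations of same-numbered libraries correlated at 0.05 to 0.26, -0.15 to 0.02 and -0.44 to -0.07 in the 3 comparisons. In the first comparison each microplastics library correlated best with the control library of its own number, and in the others none did. Whether same-numbered libraries share more than a number was not tested. The replicate block called 2417, 1293 and 0 genes and none of the taurine genes. Reads limit SLC6A6, SLC6A13, GADL1, CSAD and GTPBP3, which had fewer than 10 reads in at least 1 library.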

Other observations

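Further genes around taurine were called in 1 comparison or in both. MTRR, which restores methionine synthase, rose by 0.92 on the log2 scale with microplastics (adjusted p = 0.032, edgeR). That call was lost without control 1 or 2 or microplastics 2 or 3 (0.77 to 0.92). It was also lost with the replicate block (0.93) and with transcripts tested one by one (0.92). SLC1A1, a carrier of glutamate and cysteine, rose by 1.25 (adjusted p = 0.0267, edgeR), which did not pass when control 1 (1.03), microplastics 2 (1.25) or microplastics 3 (1.07) was left out. CHAC1, which degrades glutathione, rose by 0.97 with microplastics (adjusted p = 0.023, edgeR) and fell by 1.05 with taurine against microplastics (adjusted p = 0.0238). The rise of CHAC1 was lost without control 1 or 2 or microplastics 1 or 2 (0.85 to 0.91) and its fall without microplastics 1 or 2 or taurine 3 (-0.99 to -0.84), and both were lost with the replicate block (0.93 and -1.05).

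Markers of other cell types were summed in each library. Leukocyte markers summed to 6.04 to 10.1 TPM in control, 8.84 to 10.2 TPM with microplastics and 4.86 to 7.21 TPM with taurine. Endothelial and stromal markers summed to 13.4 to 23.2 TPM, 32.8 to 50.6 TPM and 21.1 to 31.1 TPM in the same order. ACTA2 averaged 8.05 TPM in control and 15.8 TPM with microplastics, CNN1 3.51 and 13.5 TPM, and TEK 2.75 and 7.87 TPM. KDR averaged 2.59 and 2.38 TPM, DCN 0.150 and 0.123 TPM, and PECAM1 0.0 and 0.047 TPM. Of 6 tested markers of this list, 1 rose with microplastics, where 9.68% of all genes rose. In TPM, 49.2% of tested genes had microplastics above control without overlap. Erythroid markers summed to 95.5 to 167 TPM in control, 44.6 to 70.4 TPM with microplastics and 46.9 to 71.5 TPM with taurine. Nearly all of it came from HBA, at 54.8 TPM in control, and HBA1, at 64.8 TPM.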
